A study of Mus musculus with 4 samples.

Results

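Some rows of the deposited expression table carry the names of 2 or more loci joined by a comma, and the 426 of them that reached a value of 10 in 2 or more libraries are described here. They come from 4893 joined rows in a table of 22849 rows, and 418 of them join a pair of loci, 7 join 3 loci and 1 joins 4. How the authors assigned reads to such a row is not given in the sources used here. Each joined row was set beside the rows that hold 1 of its loci alone, called single rows here. All loci had a single row in 408 of the 426.

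The cells were bone-marrow Lin-Kit+ cells of C57BL/6 mice, a fraction without the surface markers of mature blood lineages that carries the Kit receptor and holds stem and progenitor cells. The 4 RNA-seq libraries were 2 from wild-type mice (WT) and 2 from mice of genotype Asxl1-/- (KO). Neither the age of the mice, nor how the allele was made, nor which animals gave each replicate is stated, so p-values measure the spread between libraries. ASXL1 is a chromatin protein whose gene is a recurrent target of mutation in myeloid disease, and the comparison of KO with WT asks which transcripts differ in cells that lack it. In bulk RNA, fewer cells of a type and less RNA per cell cannot be told apart.

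Neighbouring loci can share transcribed sequence in several ways. Genes on opposite strands may converge, so that their ends lie close together or overlap, or diverge from a shared promoter. Small nucleolar RNAs (snoRNAs), which guide chemical modification of ribosomal and spliceosomal RNA, are mostly cut from introns of host genes, and many microRNAs are cut from longer primary transcripts that hold several hairpins. Tandem duplication leaves families of near-identical genes side by side, such as the class I genes of the H2 complex, which present peptides to T cells, or the stefin A genes, which encode inhibitors of cysteine proteases.

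Sequences are shown for 4 of these settings. The 225 bases between the diverging starts of Psmb9 and Tap1 (RefSeq, GRCm38.p6, chr17:34187331-34187555, + strand) are shown because the joined row of this pair was lower in KO. Capitals mark the only match, on the other strand, to the GC box letters GGGCGG.
Psmb9 to Tap1: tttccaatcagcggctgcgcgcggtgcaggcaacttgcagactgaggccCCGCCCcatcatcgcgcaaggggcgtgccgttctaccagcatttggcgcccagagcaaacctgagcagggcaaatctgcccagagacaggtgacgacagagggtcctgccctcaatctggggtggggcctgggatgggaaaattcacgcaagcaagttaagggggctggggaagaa

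On both strands of the 32851 promoter windows of RefSeq, GGGCGG was found in 31.9%. The windows searched were the 225 bases before each start, the same length as this stretch. The core of the interferon-stimulated response element was found in 2.62% of the windows, and those of the interferon gamma activated site, TTCNNNGAA, in 6.23%. Neither motif was in the Psmb9 to Tap1 stretch.

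For 2 joined rows whose loci lie apart but resemble each other, the longest coding run that both genes share is shown (GENCODE M21, coding strand). The stefin A genes BC117090 and BC100530 share 138 bases, of which the first 120 are printed, and H2-D1 and H2-Q10 share 88.
BC117090 and BC100530: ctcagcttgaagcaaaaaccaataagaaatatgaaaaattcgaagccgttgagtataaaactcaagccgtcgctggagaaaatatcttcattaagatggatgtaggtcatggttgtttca
H2-D1 and H2-Q10: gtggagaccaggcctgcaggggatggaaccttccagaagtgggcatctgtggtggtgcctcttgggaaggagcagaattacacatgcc

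MicroRNAs of the joined rows are shown with the seed, bases 2 to 8, in capitals (RefSeq, GRCm38.p6). miR-93, miR-106b and miR-20a share a seed, while the 3 microRNAs of the Mir23a cluster have different ones.
miR-23a-3p: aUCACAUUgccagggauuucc
miR-27a-3p: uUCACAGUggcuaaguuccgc
miR-24-3p: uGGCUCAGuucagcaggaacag
miR-93-5p: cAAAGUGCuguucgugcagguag
miR-106b-5p: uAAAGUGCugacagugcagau
miR-20a-5p: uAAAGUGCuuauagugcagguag
miR-2861: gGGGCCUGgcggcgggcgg

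The values are read counts scaled by the authors with a constant for each library, called normalised read counts here. Recovered reads numbered 46597871 and 49764454 in WT and 83586916 and 76688583 in KO. Asxl1 itself matched the labels, at 9742 and 9472 in WT and 146 and 134.5 in KO (log2 fold change -6.09 ± 0.09, SE), and no joined row held its locus. The locus named Tsix+Xist was at 103006 and 89290.1 in replicate 1 of WT and KO and at 2123 and 147 in replicate 2, and the Y-linked Eif2s3y was at 11.7 and 3.03 against 6581 and 7647. Replicate 1 thus had the female pattern of these transcripts in both genotypes, and replicate 2 had abundant Y-linked transcripts. The libraries of a genotype were therefore not from the same animal. The KO against WT test given below holds genotype alone, so such differences are part of its spread between libraries. The cell type was checked with 8 progenitor markers, Kit, Cd34 and Mpo among them, which summed to 629624 and 579023 in WT and 538761 and 466709 in KO. Mpo made up most of each sum, at 525289 and 474770 in WT and 441863 and 370120 in KO. Cd34, Gata2, Myb and Flt3 were also lower in both KO libraries, Kit and Sfpi1 were higher, and Runx1 overlapped. Markers of lymphoid, erythroid, macrophage, megakaryocyte, stromal and mature neutrophil cells were also found, none at 0 in any library. The 4 mature neutrophil markers Cxcr2, Mmp8, Mmp9 and S100a8 summed to 196847 and 216517 in WT and 336928 and 339069 in KO. Those of 4 mature B cell markers were 24821 and 24256 against 18136 and 14142, and those of 4 T cell markers 412 and 369.5 against 208 and 205. Most of the T cell difference lay in Cd4, at 308 and 261 in WT and 114 and 82.5 in KO. Cd3e was lower in KO as well, Cd8a overlapped, and Cd3d was higher, at 36.3 and 48.8 against 56.1 and 66.0. The part of these marker differences in the rows that were lower in KO was not tested.

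All joined rows of the table together held 0.0630% and 0.0676% of the reads of the WT libraries and 0.0619% and 0.0655% of the KO libraries. The groups overlapped, and the difference of means was -0.0016 percentage points (exact permutation test, two-sided, p = 0.667, where the smallest possible p is 0.333). Its sign was positive, at 0.00261, without the 5 joined rows with the most reads. The 426 rows made up 8.71% of all joined rows and held 85.6% of their reads. The row of the clone-named loci AK220016 and AK187054 on chromosome 5 alone held 18.8% of the reads of the 426, and the top 10 rows held 33.5%.

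Just inside the minimum lay 1700029I01Rik+Gm13139+Gm13152,Gm13138+Gm13235+Rex2 and Ctse,Rab42+5430435G22Rik+Rab7b, whose second highest value was 10.4. Just outside lay Bcl2l2,Pabpn1 and Coq6,Entpd5, at 9.90. A plus sign merges gene names that the authors gave 1 locus, and reads cannot be divided between merged names.

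Of the 400 joined rows whose pair of loci could be placed, 301 had loci that lay apart, 86 had 1 locus inside the other and 13 had loci that overlapped in part. In the table's own coordinates the gap between loci apart had a median of 191 bases, and 199 of the 301 gaps were at most 1000 bases. Among joined rows under the minimum the median gap was 6598 bases, and 5.68% of the placed rows were nested against 21.5% here. Across the 301 rows, which share the same 4 libraries, Spearman's rho of gap and mean value was -0.03.

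Strand was known, by gene name in GENCODE M21, for 200 of the 301: 91 pairs lay on the same strand, 54 converged and 55 diverged. Under the minimum 62.8% of such pairs lay on the same strand. Converging pairs had a median gap of 96.5 bases and diverging pairs 125 bases, while same-strand pairs had 4496 bases. Sequence of the annotated transcripts set these groups apart too. Among converging pairs 24 of 54 shared at least 1 run of 31 bases on opposite strands, as did 36 of 55 diverging pairs and 1 of 91 same-strand pairs. On the same strand, 42 of 91 same-strand pairs shared such a run, against 2 converging and 4 diverging pairs.

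Joined values were mostly small beside those of their loci. The median joined row had 5.70% of the mean value of its less abundant single row, over the 408 rows with all single rows. In 89 of them the joined value exceeded that single row, and 49 of the 89 were rows of a small RNA inside its host.

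**Figure D1:**
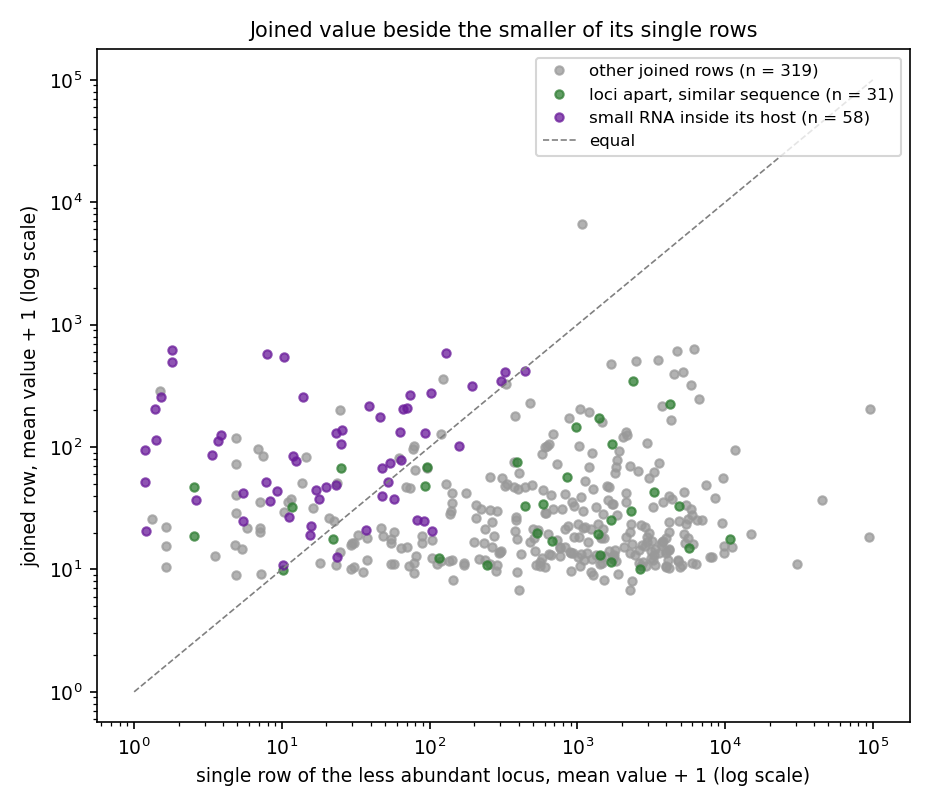
Mean value of each joined row over 4 libraries (y axis, log scale) against the mean value of the less abundant of its single rows (x axis, log scale), both in normalised read counts plus 1, for 408 rows. Rows of a small RNA inside its host lie mostly above the dashed line of equality, and most other rows lie far below it.

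Single libraries stood apart in some joined rows. In 20 of the 426 rows the 2 libraries of a genotype differed by more than 8-fold on the log2(value + 1) scale, and 14 of these had an H2 locus on chromosome 17. In 12 rows the gap was present in both genotypes, and all 12 held an H2 locus. Over these 12 rows, values summed to 33.7 in WT replicate 1 and 21.2 in KO replicate 1, against 1499 in WT replicate 2 and 1763 in KO replicate 2.

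H2-D1+H2-B2,H2-Gs10+AK158083+H2-gs10 had 20.7 and 567 in WT and 16.7 and 682 in KO. H2-D1+H2-B2,H2-Q10 had 2.59 and 204 in WT and 0.758 and 194 in KO. H2-K1,H2-K2 had 2.59 and 127 in WT and 0.758 and 169 in KO. In each row the replicate 2 libraries were high and the replicate 1 libraries low, whatever the genotype. The abundant single rows did not divide in that way: H2-D1+H2-B2 had 45709 and 34488 in WT and 26305 and 40896 in KO, and H2-K1 had 48562, 23701, 20862 and 22323. Of the scarce ones, H2-Q2 had 0 and 9.76 in WT and 0 and 5.78 in KO, and H2-Q1+Gm8909 had 2.59 and 70.7 in WT and 6.82 and 34.7 in KO, so both followed the replicate number. The H2 rows divided the libraries as Tsix+Xist and the Y-linked transcripts did, and the part of sex or of the animals in this was not tested. No H2 row passed the KO against WT test.

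**Figure D2:**
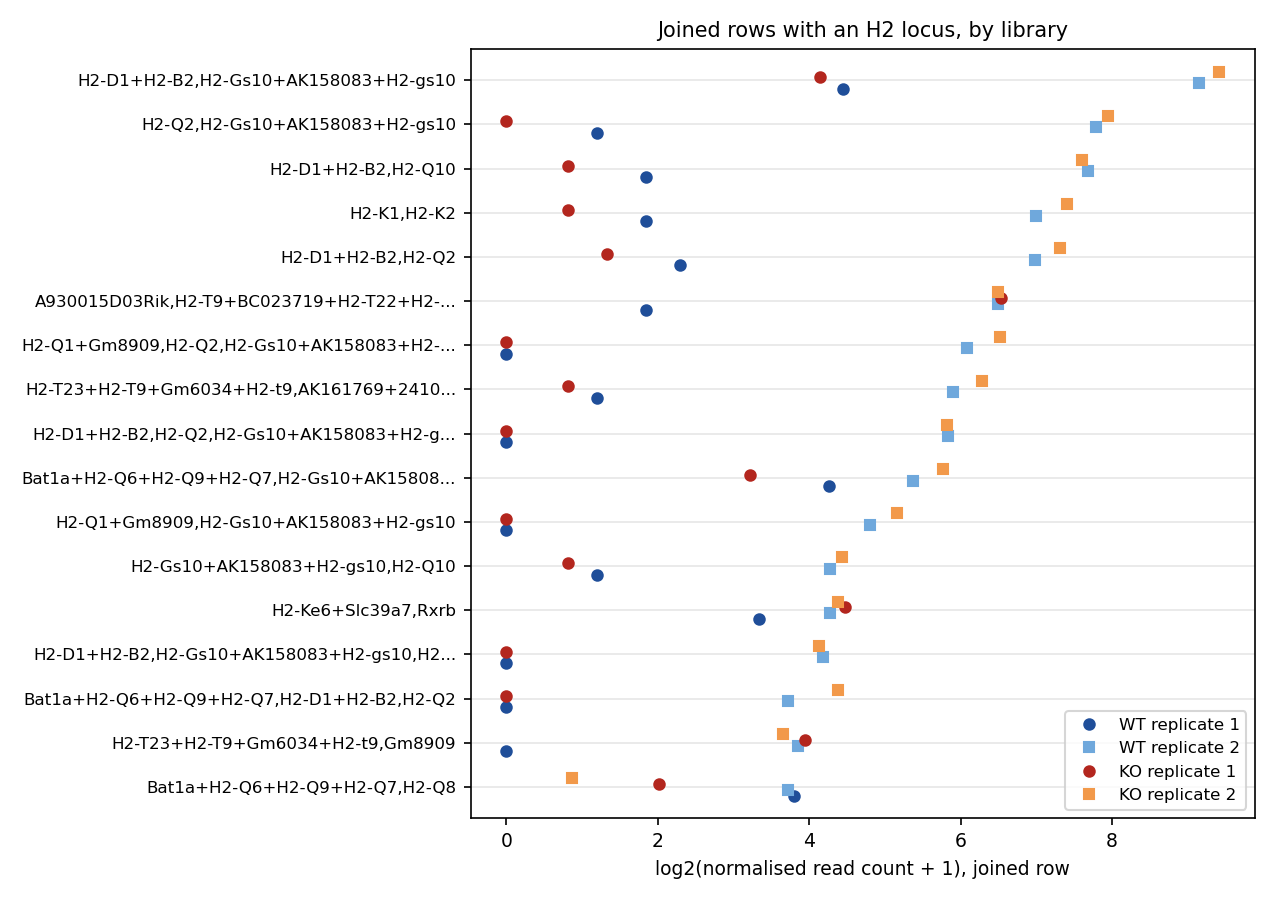
Values of the 17 joined rows with an H2 locus in each library, as log2(normalised read count + 1), with long names shortened. Squares (replicate 2) lie to the right of circles (replicate 1) in both genotypes for 13 of the 17 rows.

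Rows without an H2 locus were uneven too, and not all of them joined similar neighbours. Ceacam1,Ceacam2, genes of a cell adhesion family, had 6.48 and 4.88 in WT and 241 and 11.6 in KO, so that KO replicate 1 alone was high. Mnda+Ifi204,Mndal, of the interferon-inducible p200 family, had 346 and 7.32 in WT and 196 and 361 in KO, with WT replicate 2 alone low. In Mndal,Ifi203 the same library was low, at 47.6 beside 347, 197 and 268, although the single row of Mndal was at 4526 there and at 2309 to 4177 in the others. Slc28a2,Gm14085, a nucleoside transporter and its neighbour, had 6.48 and 50.005 in WT and 4.55 and 71.0 in KO, with both replicate 2 libraries high as in the H2 rows. Serpina3h,Serpina3i, serine protease inhibitors of 1 cluster, had 75.1 and 90.3 in WT and 0 and 19.8 in KO, although the single rows of both loci never exceeded 6.10. Lap3,Med28, whose transcripts shared no run of 31 bases on the same strand, had 10.4 and 0 in WT and 12.1 and 0.825 in KO. Sequence was not compared for the row of the merged Lilrb3 and Pira locus and AK137448. That row had 37.6 and 47.6 in WT and 5.31 and 237 in KO. None of the rows in this paragraph passed the test.

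KO was compared with WT by limma over all 14190 rows, single and joined, that reached the minimum, and p-values were adjusted over all of them. Fold changes are log2 of KO over WT on the log2(value + 1) scale ± SE, which understates changes of low rows. Of the 426 joined rows 17 passed the threshold of adjusted p 0.05, or 3.99%, where the share was 19.8% over all rows tested and 20.3% over single rows. Counts of passing rows in smaller sets, given below, are to be read beside these shares. Of the 17, 11 were higher and 6 lower in KO. The background was 11.4% higher and 8.49% lower, and with upper-quartile scaling 43.4% of the calls over all rows were higher, against 57.2%, while the joined rows stayed at 11 higher and 6 lower. An unadjusted p under 0.05 was found for 53 of the 426.

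The share that passed differed with the mean value: of single rows with a mean value under 100, 7.66% passed, against 23.5% of single rows at 100 or more. Among joined rows 8 of 355 under 100 passed (2.25%) and 9 of 71 at 100 or more (12.7%). The libraries of the genotypes did not overlap in 42.3% of the joined rows and in 65.4% of all rows. In 37 rows the minimum was reached through both libraries of 1 genotype only, 26 through KO and 11 through WT. These had to differ, and 5 of the 17 called rows were among them: AK035387,Samd9l, Psmb9,Tap1, Igsf5+Pcp4,Itgb2l, Zmynd17,Ppp3cb and BC117090,BC100530. The median log2 fold change was 0.09 over the 426 rows and -0.00 over all rows tested.

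**Figure D3:**
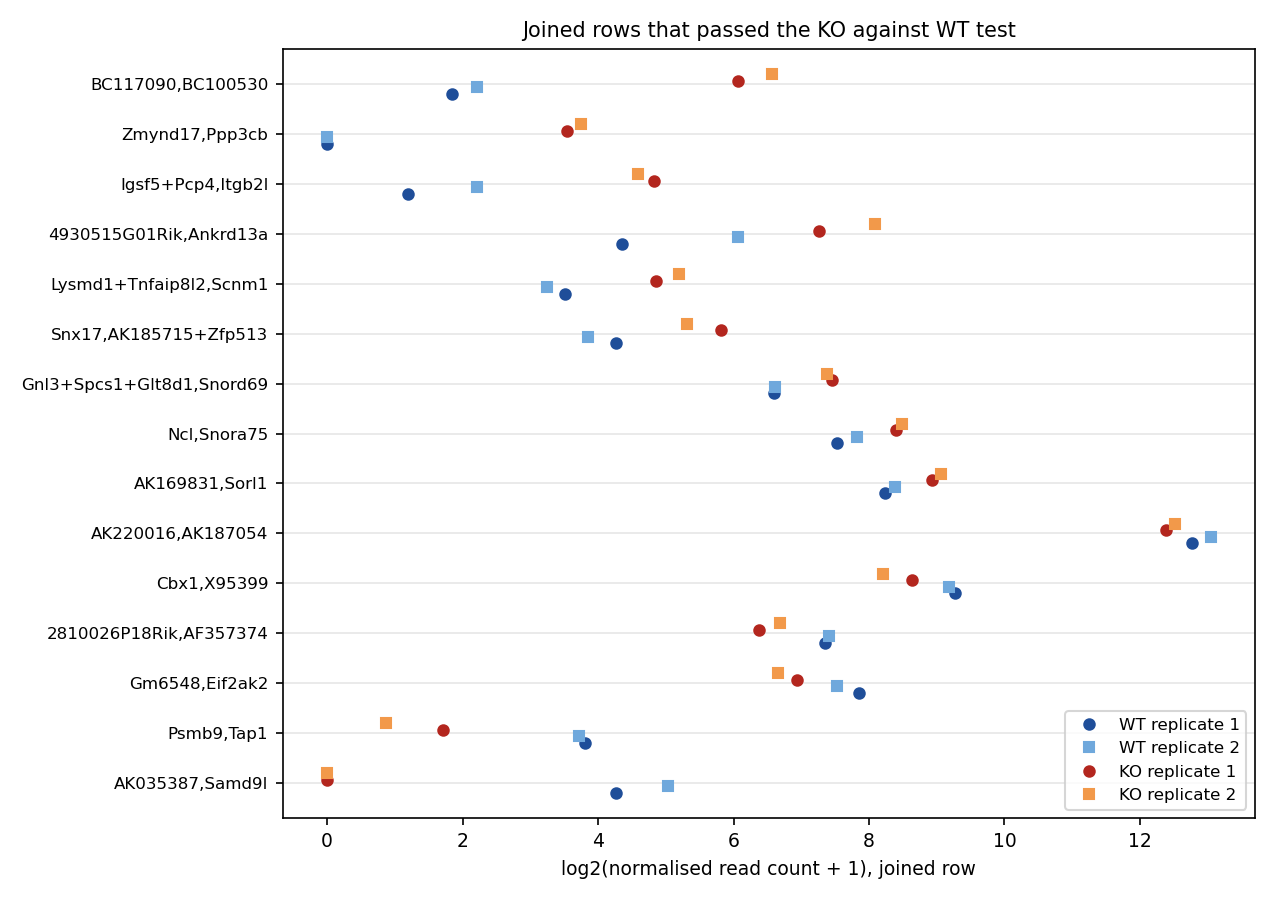
Value in each of the 4 libraries of 15 of the 17 joined rows that passed the KO against WT test, as log2(normalised read count + 1), ordered by log2 fold change. Blue points are WT and red or orange points KO, and in no row do the genotypes overlap.

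Psmb9,Tap1 and Gm6548,Eif2ak2 were lower in KO. Psmb9 encodes an inducible proteasome subunit and Tap1 a peptide transporter, and both supply class I molecules with peptide. Psmb9,Tap1 (mm9 chr17:34319043-34334170, starts 224 bases apart and diverging) had 13.0 and 12.2 in WT and 2.27 and 0.825 in KO, which are 10, 10, 3 and 1 reads. WT exceeded KO 7.95-fold, with an exact 95% interval of 2.66 to 31.99 that covers counting error only (log2 -2.47 ± 0.65, adjusted p = 0.048). Both loci were lower as well: Psmb9 had 3546 and 2459 in WT and 1589 and 1814 in KO (log2 -0.80 ± 0.17, adjusted p = 0.0291), and Tap1 had 10695 and 6520.1 against 5098 and 5226 (log2 -0.69 ± 0.21, adjusted p = 0.0695). The call of the joined row is fragile: it held under 3 of 11 alternatives and was lost without any 1 library.

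Eif2ak2 encodes PKR, a kinase activated by double-stranded RNA, and its single row ends 4 bases from the predicted gene Gm6548 on the same strand. Gm6548,Eif2ak2 (mm9 chr17:79249844-79281912) had 231 and 184 in WT and 121 and 99.8 in KO (log2 -0.90 ± 0.22, adjusted p = 0.0391). Its loci fell by similar amounts, by 0.84 ± 0.15 for Gm6548 and by 0.77 ± 0.11 for Eif2ak2 on the log2 scale. These were the only 2 joined rows with a gene of the interferon-stimulated list. Both passed, where 8.49% of all rows tested passed as lower, but Psmb9,Tap1 reached the minimum through WT alone and had to differ, so nothing is read from the count. The call of Gm6548,Eif2ak2 was lost when any library other than KO replicate 1 was left out, and with no filter beyond 1 read.

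AK035387,Samd9l joined a clone-named locus and Samd9l, an antiviral gene of the SAMD9 family, across 26186 bases (mm9 chr6:3283193-3349571). It had 18.1 and 31.7 in WT and no read in either KO library, so it was at least 10.5-fold lower in KO, taking 3 reads per library as the floor (adjusted p = 0.00892). AK035387 alone fell from 961 and 945 to 313 and 366 (log2 -1.49 ± 0.13, adjusted p = 0.00225). Samd9l had 8904 and 9947 in WT and 8061 and 8741 in KO (log2 -0.16 ± 0.07, adjusted p = 0.161). The joined row had the larger fold change, but it reached the minimum through WT alone, and the size of its change depends on the pseudocount. In the limma test of its ratio to the loci, described below, it did not pass (adjusted p = 0.434). Among the 11 alternatives that gave it an adjusted p-value, its call was lost only without WT replicate 2. DESeq2 and a filter at a value of 30 gave it none.

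A large rise was found at the stefin A cluster. BC117090,BC100530 (mm9 chr16:36321750-36367656) joined genes 25048 bases apart, and their shared coding run is printed above. Of the 31-base runs in transcripts of the gene with fewer such runs, 42.02% were also found in the other gene. The row had 2.59 and 3.66 in WT and 65.9 and 94.1 in KO, or 5 reads against 201 (25.3-fold, exact 95% interval 10.7 to 78.7 for counting error only). By limma the log2 fold change was 4.29 ± 0.44 (adjusted p = 0.00373), and the row passed under all 13 alternatives. Its loci rose alike. BC117090 had 174 and 149 in WT and 3243 and 9675 in KO (log2 5.11 ± 0.47), and BC100530 had 1849 and 1768 against 20679 and 59624 (log2 4.28 ± 0.45). KO replicate 2 was the highest library in both loci and in the joined row.

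A row with an integrin gene also rose. Itgb2l encodes an integrin beta chain and lies inside the locus named Igsf5+Pcp4, on the opposite strand. Igsf5+Pcp4,Itgb2l (mm9 chr16:96583363-96747400) had 1.30 and 3.66 in WT and 27.3 and 23.1 in KO, or 4 reads against 64 (10.1-fold, exact 95% interval 3.74 to 38.1, adjusted p = 0.0223 by limma). Itgb2l rose from 10461 and 11538 to 22556 and 22640.3 (log2 1.04 ± 0.06, adjusted p = 0.00133). Igsf5+Pcp4 rose from 32.4 and 41.5 to 98.5 and 80.9 (log2 1.26 ± 0.29, adjusted p = 0.0335). The joined call was lost when any library other than WT replicate 2 was left out. The sums of mature neutrophil markers given above were also higher in both KO libraries, and their part in this row and in the stefin A row was not tested.

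Rows with genes of the neutrophil granule list numbered 5, and none passed (median log2 fold change 0.93, from -0.69 to 1.17). Chi3l3,Chi3l4, of the chitinase-like family, had 25.9 and 13.4 in WT and 46.2 and 40.4 in KO (log2 1.17 ± 0.43, adjusted p = 0.108), while Chi3l3 alone passed (log2 0.56 ± 0.09, adjusted p = 0.012). The row of Prtn3, which encodes proteinase 3, and the merged Ptbp1 locus had 25.9 and 41.5 in WT and 39.4 and 38.0 in KO. Its groups overlapped.

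Another 4 neighbour pairs were higher in KO, with smaller fold changes in both loci. They were picked by the change of the joined row, and the first reached the minimum through KO alone. None passed in the limma test of the ratio to its loci, described below (adjusted p = 0.485 for each). Zmynd17,Ppp3cb joins Zmynd17, now named Mss51, and a catalytic subunit of calcineurin on the same strand (mm9 chr14:21302085-21365795). It had no read in either WT library and 10.6 and 12.4 in KO, at least 3.05-fold higher with 3 reads per library as the floor (adjusted p = 0.0222). Zmynd17 rose from 285 and 309 to 519.9 and 489 (log2 0.76 ± 0.13), and Ppp3cb had 12160.0 and 11778 in WT and 11039 and 10000.3 in KO (log2 -0.19 ± 0.06, adjusted p = 0.0828). The joined call was lost without any 1 of the 4 libraries.

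4930515G01Rik,Ankrd13a (mm9 chr5:115223741-115255829) diverge with 155 bases between them, and Ankrd13a encodes a protein that binds ubiquitin. The joined row had 19.4 and 65.9 in WT and 152 and 271 in KO (log2 2.47 ± 0.60, adjusted p = 0.0374). Its loci differed little: 4930515G01Rik had 129.5 and 132 against 113 and 102, and Ankrd13a had 36369.8 and 38952 against 37702 and 39508. Here the joined row in KO exceeded the smaller locus, and over the 4 libraries it had 107% of it. Leaving out WT replicate 1 or KO replicate 2 ended the call.

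Lysmd1+Tnfaip8l2,Scnm1 on chromosome 3 had 10.4 and 8.54 in WT and 28.0 and 35.5 in KO (log2 1.64 ± 0.42, adjusted p = 0.0433). Scnm1, a splicing factor, had 1093, 1123, 1067 and 1068 in the same libraries, and the merged locus had 1072, 1059.9, 1101 and 1216. Snx17,AK185715+Zfp513 on chromosome 5, a sorting nexin gene that converges with a zinc finger gene, had 18.1 and 13.4 in WT and 55.3 and 38.8 in KO (log2 1.51 ± 0.39, adjusted p = 0.0457). Both loci of this pair had adjusted p-values over 0.09. Both calls were lost when any 1 library was left out, with DESeq2 and with no filter beyond 1 read.

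In a row of higher value the joined row and its loci rose by similar amounts. AK169831,Sorl1 on chromosome 9, of a sorting receptor, had 299 and 334 in WT and 486 and 533 in KO (log2 0.68 ± 0.14, adjusted p = 0.0231), beside 0.65 ± 0.07 for AK169831 and 0.64 ± 0.07 for Sorl1. Its call was lost on dropping either WT library.

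Cbx1,X95399 on chromosome 11 fell. Cbx1 encodes the heterochromatin protein HP1 beta, and X95399 is a clone-named locus of 769 bases inside it. The row had 616 and 582 in WT and 398 and 295 in KO (log2 -0.80 ± 0.17, adjusted p = 0.0278), and Cbx1 and X95399 fell by 0.35 ± 0.06 and by 0.44 ± 0.08 on the log2 scale. AK220016,AK187054, the most abundant joined row, had 6969 and 8435 in WT and 5354 and 5864 in KO (log2 -0.45 ± 0.10, adjusted p = 0.03). Its loci, 105 bases apart, did not pass: AK220016 had 10913 and 11659.6 against 8561 and 10224, and AK187054 had 984 and 1317 against 958 and 1008. The Cbx1,X95399 call was lost on dropping either WT library, and that of AK220016,AK187054 without WT replicate 2.

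Small RNA rows formed the largest functional group. A snoRNA, snoRNA host or microRNA name was in 79 of the 426 rows (18.5%), against 2.84% of the joined rows under the minimum. In 58 rows the small RNA lay inside another locus, and these rows held 25.5% of the reads of the 426. Their single small RNA rows were low, with a median of 20.6 and 20 of 58 under 10, while the joined rows had a median of 84.2. A count of reads shared by host and snoRNA is not a count of mature snoRNA.

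Ribosomal protein hosts gave abundant rows. Rpl4,Snord16a had 482 and 531 in WT and 625 and 548 in KO. Gm10653+Rps2,Snora64 had 541 and 456 in WT and 444 and 544 in KO. Neither of these rows passed. Of 27 rows with a cytosolic ribosomal protein gene none passed, beside 3.99% of the 426 joined rows and 19.8% of all rows tested. Their median log2 fold change was -0.07, from -0.50 to 1.42.

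Another 4 rows were among the 6 highest relative to the smaller locus, 2 of them with a noncoding snoRNA host. 1810032O08Rik is now named Snhg16, and 1810032O08Rik+Snord1a,Snord1b had 71.2 and 98.8 in WT and 94.0 and 109 in KO, while Snord1b alone had a single read in 1 library. Snord99+Snhg12,Snora61 had 209 and 246 in WT and 182 and 185 in KO. Rpl13a+Snord34+Rpl13a-ps1,Snord35a had 253 and 282 in WT and 214 and 267 in KO. Bre,AK189432, a pair without a small RNA name, had 285 and 245 in WT and 308 and 310.3 in KO, beside at most 1.22 for AK189432 alone.

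Of the 58 rows with a small RNA in its host, 3 passed the KO against WT test, 2 higher and 1 lower. Beside this stand 3.99% of the 426 joined rows and 19.8% of all rows tested, and nothing about small RNA hosts is read from the count. Nucleolin, encoded by Ncl, and nucleostemin, encoded by Gnl3, act in ribosome production. Ncl,Snora75 had 183 and 224 in WT and 337 and 359 in KO (log2 0.78 ± 0.17, adjusted p = 0.0296), while Ncl had 98993 and 99352 against 95358 and 94394 (log2 -0.06 ± 0.04, adjusted p = 0.308). The mean log2 fold change of the single rows of Ncl and Snora75 was 0.28, so that of Snora75 was also higher in KO. Ncl,Snord82, from the same host, had 28.5 and 31.7 in WT and 47.0 and 58.6 in KO and did not pass (log2 0.78 ± 0.32, adjusted p = 0.132).

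Gnl3+Spcs1+Glt8d1,Snord69 had 95.8 and 96.4 in WT and 174 and 166 in KO (log2 0.81 ± 0.20, adjusted p = 0.037). Its host had 15288 and 15122 against 13881 and 15317, and the mean log2 fold change of the single rows of host and Snord69 was 0.03. Gnl3+Spcs1+Glt8d1,Snord19, again from the same host, had 109 and 102 in WT and 152 and 150.2 in KO (log2 0.51 ± 0.20, adjusted p = 0.118). Rows of 1 host share transcript and libraries and are not independent.

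The third was lower. 2810026P18Rik, now Snhg5, is a noncoding snoRNA host and AF357374 a short locus inside it. 2810026P18Rik,AF357374 had 162 and 169.5 in WT and 81.9 and 102 in KO (log2 -0.85 ± 0.22, adjusted p = 0.0449), while the host itself rose from 3937 and 4256 to 5062 and 4989 (log2 0.30 ± 0.06, adjusted p = 0.0251). The mean log2 fold change of the single rows of host and AF357374 was 0.17. A like pattern of values was seen in 1500012F01Rik+Znfx1,Snord12, with 275 and 343 in WT and 183 and 227 in KO (log2 -0.59 ± 0.20, adjusted p = 0.0874). Gas5,Snord47 had 632 and 743 in WT and 427 and 557 in KO (log2 -0.49 ± 0.17, adjusted p = 0.0922), and there the single row of Snord47 fell from 155 and 173 to 82.6 and 101 while Gas5 differed by 0.01 ± 0.06 on the log2 scale.

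The Ncl,Snora75 call was lost when any library other than KO replicate 1 was left out. That of Gnl3+Spcs1+Glt8d1,Snord69 was lost without any 1 library and with no filter beyond 1 read. That of 2810026P18Rik,AF357374 was lost when any library other than KO replicate 2 was left out, with edgeR and with no filter beyond 1 read. Over the 57 rows whose host was tested, the log2 fold changes of joined row and host were related inversely (Pearson's r -0.37, Spearman's rho -0.43). This is a description across rows, which share libraries and in part hosts. Host changes were small, from -0.30 to 0.56. The host passed in 6 of these 57 rows, a host being counted once for each of its rows, where 19.8% of all rows tested passed.

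MicroRNA loci were named in 16 rows. None passed, although 14 had a higher mean log2 value in KO (median log2 fold change 0.45), where 58.2% of the 426 rows and 49.4% of all rows tested did. Several of the 16 come from the same host or cluster, and all share libraries, so they are not independent. The smallest p was that of Cdk9,Mir2861 (unadjusted p = 0.0133, adjusted p = 0.0591), with 7.77 and 20.7 in WT and 47.0 and 47.9 in KO. Mir2861 alone had 5.18 and 7.32 in WT and 18.2 and 30.5 in KO.

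The Mir23a cluster, whose 3 mature sequences are shown above, gave 3 joined rows. Mir23a,Mir27a,Mir24-2+Mir3074-2 had 9.07 and 15.9 in WT and 25.0 and 33.0 in KO (log2 1.19 ± 0.46, adjusted p = 0.12). Mir27a,Mir24-2+Mir3074-2 had 27.2 and 25.6 in WT and 44.0 and 42.1 in KO (log2 0.68 ± 0.32, adjusted p = 0.179). The genotypes were separate in these rows and overlapped in Mir23a,Mir27a, at 20.7 and 10.98 against 15.2 and 29.7. The single row of Mir24-2+Mir3074-2 passed, with 67.3 and 48.8 in WT and 114 and 168 in KO (log2 1.26, adjusted p = 0.0375). These values are reads over hairpin loci in a long-RNA library and are not levels of mature microRNA.

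Rows with the shared AAAGUGC seed were those of the Mcm7 host and of the Mir17 host. Mcm7 encodes a subunit of the replicative helicase. Mcm7,Mir106b had 9.07 and 15.9 in WT and 15.2 and 25.6 in KO, and Mir25,Mir93 had 18.1 and 17.1 in WT and 24.3 and 23.9 in KO (log2 0.43, adjusted p = 0.452). Mir20a,Mir17hg had 27.2 and 18.3 in WT and 35.6 and 18.2 in KO. AK020764,Mir142, of a microRNA abundant in blood cells, was the highest microRNA row, with 246 and 231 in WT and 307 and 274 in KO (log2 0.28, adjusted p = 0.248).

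The other lists had few rows. Of 3 rows with an erythroid or haem gene none passed, and B4galt3,Ppox and Hba-a2,Hba-a2 had log2 fold changes of 0.54 ± 0.56 and 0.60 ± 0.45. Prdx2,AK006748+Junb, the 1 immediate-early row, had 79.0 and 67.1 in WT and 91.0 and 135 in KO (log2 0.60 ± 0.28, adjusted p = 0.186), although the single row of AK006748+Junb passed (log2 0.68 ± 0.06). Of 4 rows with a mitochondrial ribosomal protein gene none passed, Mrpl16,Stx3+AK044380 and Mrpl18,AK163149+Tcp1+Acat3 being the most abundant at -0.16 ± 0.35 and 0.61 ± 0.33. Cdca5,Gm550, with the gene of the cohesin regulator sororin, had 14.2 and 8.54 in WT and 15.2 and 4.95 in KO, and Hist2h2ab,Hist2h2ac had 5.18 and 10.98 against 13.6 and 5.78. No row held a gene of the stem cell and Hox list. The pattern for antisense names took 3 rows, of which none passed, and the 2 most abundant, Gas5,Snord47 and Dnajc7+mDj11,Nkiras2+Zfp385c, do not name antisense transcripts.

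Of the other abundant rows, the 3 given next did not pass. Mef2d,BC106167+AK008852+AK007191, with a myocyte enhancer factor gene, had 681 and 639 in WT and 534 and 581 in KO (log2 -0.24 ± 0.11, adjusted p = 0.178). Ppt1,Cap1, a lysosomal thioesterase gene that converges with the gene of an actin regulator, had 705 and 635 in WT and 794 and 385 in KO, so the KO libraries lay on both sides of WT. Rfc4+Eif4a2,Snord2 had 541 and 526 in WT and 634 and 592 in KO (log2 0.20 ± 0.11, adjusted p = 0.254).

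Single rows beside the joined ones numbered 770, of which 729 were tested and 135 passed (18.5%). A single row passed beside 114 of the joined rows, and in 11 of these the joined row passed too. Of the 17 called joined rows, 6 had both single rows called, 5 had 1 called and 6 had none. The log2 fold change of a joined row lay above those of all its loci in 164 rows, below them in 125 and between them in 74, and it could not be placed in 63 with an untested locus. Of the 17 called rows 9 lay above, 6 below and 2 between. These rows were picked by their own change, which favours a place outside their loci, so nothing is read from this count. Across 421 rows the fold change of the joined row and the mean of its loci had Pearson's r 0.44 and Spearman's rho 0.31, a description over rows that share 4 libraries. For the 71 rows with a mean value of 100 or more, Pearson's r was 0.05 and Spearman's rho 0.24.

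**Figure D4:**
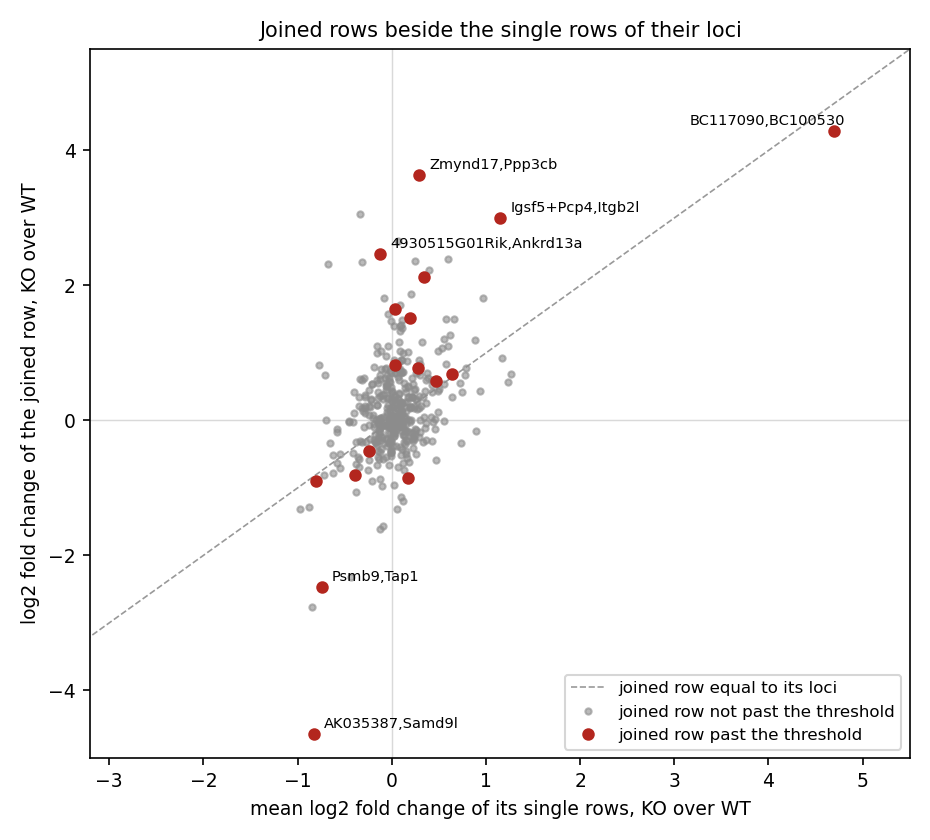
Log2 fold change of each joined row (y axis) against the mean log2 fold change of its tested single rows (x axis), KO over WT on the log2(value + 1) scale, for 421 rows. Red points are the 17 that passed, and the dashed line marks equal change. Zmynd17,Ppp3cb and AK035387,Samd9l have a genotype without reads, so their plotted fold changes depend on the pseudocount.

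Whether a joined row moved relative to its loci was tested on the log2 ratio of joined value to the sum of its single rows, over 1173 joined rows with at least 3 reads in 2 libraries. No row passed after adjustment by limma, where the share over all rows tested was 0.0%, and the smallest adjusted p was 0.434. With edgeR and the loci as offset none passed either. At an unadjusted p under 0.05 there were 44 of 408 rows (10.8%) by limma, 25 higher and 19 lower, beside 8.7% of all rows in that test, and 42 by edgeR. On simulated data this test recovered 6% of 2-fold, 26% of 3-fold and 38% of 4-fold changes. Ranked by unadjusted p, leading rows higher in KO relative to their loci included Zmynd17,Ppp3cb, Ncl,Snora75 (log2 ratio 0.84 ± 0.17) and Gnl3+Spcs1+Glt8d1,Snord69 (0.87 ± 0.19). Those lower were AK035387,Samd9l, 2810026P18Rik,AF357374 (-1.14 ± 0.21), Tulp2,Ppp1r15a (-0.99 ± 0.23) and 1500012F01Rik+Znfx1,Snord12 (-0.76 ± 0.18). For the 2 rows with a genotype at 0 the ratio depends on the pseudocount and is not given. For a small RNA inside its host the sum was mostly the host, as for Ncl at a mean of 97024 beside Snora75 at 101. Tulp2,Ppp1r15a overlap by 716 bases on opposite strands, and Ppp1r15a encodes GADD34, a regulatory subunit of a phosphatase of the stress response. The joined row had 80.3 and 106 in WT and 69.7 and 67.7 in KO, while Ppp1r15a rose from 5098 and 5614 to 8635 and 7417.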

How the data were processed

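RNA-seq values of 4 libraries (2 WT, 2 KO) were analysed. The deposited signal is a read count per locus after scaling by the authors with a constant for each library, since division by the lowest nonzero entry returned whole reads throughout (tolerance 0.001). Per the submitters' processing notes, STAR 2.3.1t and build mm9 were used. For the counter, annotation, strand handling, multiply matching reads and scaling tool, the sources used here give nothing. No column was left unused. The floor for a row at 0 was set to 3 reads, or 3.89, 3.66, 2.27 and 2.48 in value (WT replicates 1 and 2, KO replicates 1 and 2), for counting error only.

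limma 3.58.1 with a mean-variance trend (R 4.3.3) was fitted to log2(value + 1), genotype being the only term, over rows with a value of 10 or more in 2 libraries, with Benjamini-Hochberg adjustment and a threshold of 0.05. edgeR 4.0.16 and DESeq2 1.42.0 on recovered reads, other pseudocounts, scalings and filters, a replicate term and leaving out each library were alternatives. On simulated data over 14190 rows the KO against WT fit recovered 54% of 1.5-fold and 78% of 2-fold changes, with 3.64% false calls. The changed rows were drawn from all rows tested, so these are not rates for the joined rows. This simulation and that of the ratio to single loci gave every row the same spread beyond counting error. The uneven libraries of some joined rows were thus not part of them.

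Gene names were matched to GENCODE M21, of build GRCm38, for strand and sequence only (825 of 1020 names, 100 through an older name). Coordinates marked mm9 are those of the table. The rule for named rows took the 10 higher and 10 lower called rows with the largest change and separate genotypes, the 6 highest rows, the 4 higher and 4 lower with the smallest p relative to their loci, the 6 highest relative to the smaller locus, and the 2 highest of each gene list. Uneven libraries, sister rows of 1 host and microRNA rows were named after their values were seen. The rows and lists were chosen with earlier results of these data known. Some rows that the rule names are not reported here.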

Additional observations from a re-analysis of the deposited data

How the results depend on the processing

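The number of joined rows past the KO against WT threshold was 17, and with single libraries left out it ran from 7 to 15: 7 without WT replicate 1 and 9 without WT replicate 2, of which 4 each were among the 17. Dropping KO replicate 1 left 14 and dropping KO replicate 2 left 15, with 9 and 8 of the 17. It was 11 without a filter beyond 1 read and between 12 and 20 under the other alternatives. DESeq2 gave 12, of which 11 were among the 17. It gave no adjusted p-value for AK035387,Samd9l, Igsf5+Pcp4,Itgb2l, Psmb9,Tap1 and Zmynd17,Ppp3cb. Of 16 named calls, 12 were lost on dropping either WT library and 6 without the filter. The cause was not tested, except that fewer libraries and more rows tested were part of those settings. In the ratio to single loci, no row passed except 2 without WT replicate 1 and 1 without WT replicate 2, so that leaving out libraries gave 0 to 2, and 1 with the replicate block. The labels do not say what a replicate number marks, but Tsix+Xist and the Y-linked transcripts divided by it in both genotypes. Deviations of same-numbered libraries correlated at 0.31 over all rows and 0.60 over the joined rows, and with the replicate block 20 joined rows passed in the KO against WT fit, 15 of them among the 17. The block ended the calls of Lysmd1+Tnfaip8l2,Scnm1 (adjusted p = 0.0519) and Psmb9,Tap1 (0.0534), and Gas5,Snord47 (0.0331) and 1500012F01Rik+Znfx1,Snord12 (0.049) passed. The difference in the share of reads in joined rows was -0.0016 percentage points and changed sign to 0.00261 without the 5 joined rows with the most reads. With single libraries left out it ran from -0.00389 to 0.00061, positive at 0.00061 without WT replicate 2 and at 0.00016 without KO replicate 1. Leaving out the rows with an H2 locus, an alternative chosen after seeing the data, kept the 17 calls and gave a share difference of -0.0019. Most joined rows hold few reads, so their fold changes rest on few counts, and 2 libraries per genotype limit every p-value.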
